A study of Mus musculus with 6 samples.

Results

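Chemokine ligands other than Cxcl12 were examined in whole prostates after experimental autoimmune prostatitis had been set up in mice, by which immunity against prostate antigens inflames the gland. All 32 genes of this family that had been chosen by name were found by symbol among the 18697 genes of the count table. The study had 2 groups of 3 libraries. The VUF11207 group received VUF11207, known as an agonist of the atypical chemokine receptor ACKR3 (also called CXCR7), at 5 mg per kg per day into the peritoneum for 14 days. The vehicle group received the same amount of DMSO on the same schedule, so both groups had prostatitis and none was healthy. The labels give no strain, age or antigen and do not say that each library came from its own mouse, so p-values measure only the spread between these libraries, which may be technical.

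Chemokines are small secreted or membrane-bound proteins that guide leukocytes by binding G protein-coupled receptors. Inflammatory members are induced by cytokines and recruit neutrophils, monocytes or T cells. Homeostatic members are made continuously in lymphoid organs or barrier epithelia and position resident cells. Atypical receptors such as ACKR3 bind chemokines without G protein signalling. ACKR3 is known to take up the product of Cxcl12, which is not among the 32 genes.

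Levels are in CPM, a gene's read count scaled to the size of its library, after TMM normalisation, which corrects that size for a few very abundant genes. In each sentence the 3 values with VUF11207 stand for replicates 1, 2 and 3. The 3 values with vehicle stand for replicate 2, replicate 3 and a library called the unnumbered vehicle library, whose column name gave its group but matched no sample's own file. Replicate 1 was the only vehicle sample without a matched column. Total counts per library ranged from 20308018 to 33368058. Transcripts of 7 seminal vesicle genes made up 27.1% of VUF11207 replicate 1 and 61.3% of vehicle replicate 2. After scaling, a level of 1 CPM stood for 14.2 reads in vehicle replicate 2 and for 27.0 to 30.9 reads in the other 5 libraries. Epithelial markers were present throughout, with summed levels of 1859 to 2799 CPM with VUF11207 and of 1727 to 2465 CPM with vehicle. Markers of prostate secretion summed to 82222 to 189607 CPM with VUF11207 and to 39590 to 77289 CPM with vehicle. This sum joined different patterns. Pbsn was at 623, 6739 and 2652 CPM with VUF11207, against 681, 769 and 17695 CPM with vehicle. Tgm4 was likewise highest in the unnumbered vehicle library and VUF11207 replicate 2. Sbp was at 66225, 64894 and 143193 CPM with VUF11207, against 50372, 66858 and 3710 CPM with vehicle. Like Sbp, Msmb and Spink1 were lowest in the unnumbered vehicle library.

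For no chemokine ligand tested was the difference between VUF11207 and vehicle larger than the spread between libraries. Of the 32 genes, 25 passed the low count filter and 7 did not. In edgeR's quasi-likelihood test 0 of the 25 passed a Benjamini-Hochberg adjusted p of 0.05, each having an adjusted p of 0.9999, and over all 13753 genes tested 0% passed. The unadjusted p was under 0.05 for 0 of the 25, against 1.43% of all genes tested, and the smallest was 0.136, for Cxcl15. DESeq2 called 0 of the 31 for which it gave an adjusted p, with 0 at an unadjusted p under 0.05, against 0.0231% of all genes called by that tool. The values of the groups overlapped for each of the 25, while 2.52% of all genes tested were lower and 3.05% higher in every VUF11207 library. The estimated log2 fold change was positive for 9 and negative for 16, a share of 64.0% negative against 55.3% of all genes tested. Its median was -0.26 over the 25 ligands and -0.04 over all genes tested.

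**Figure D1:**
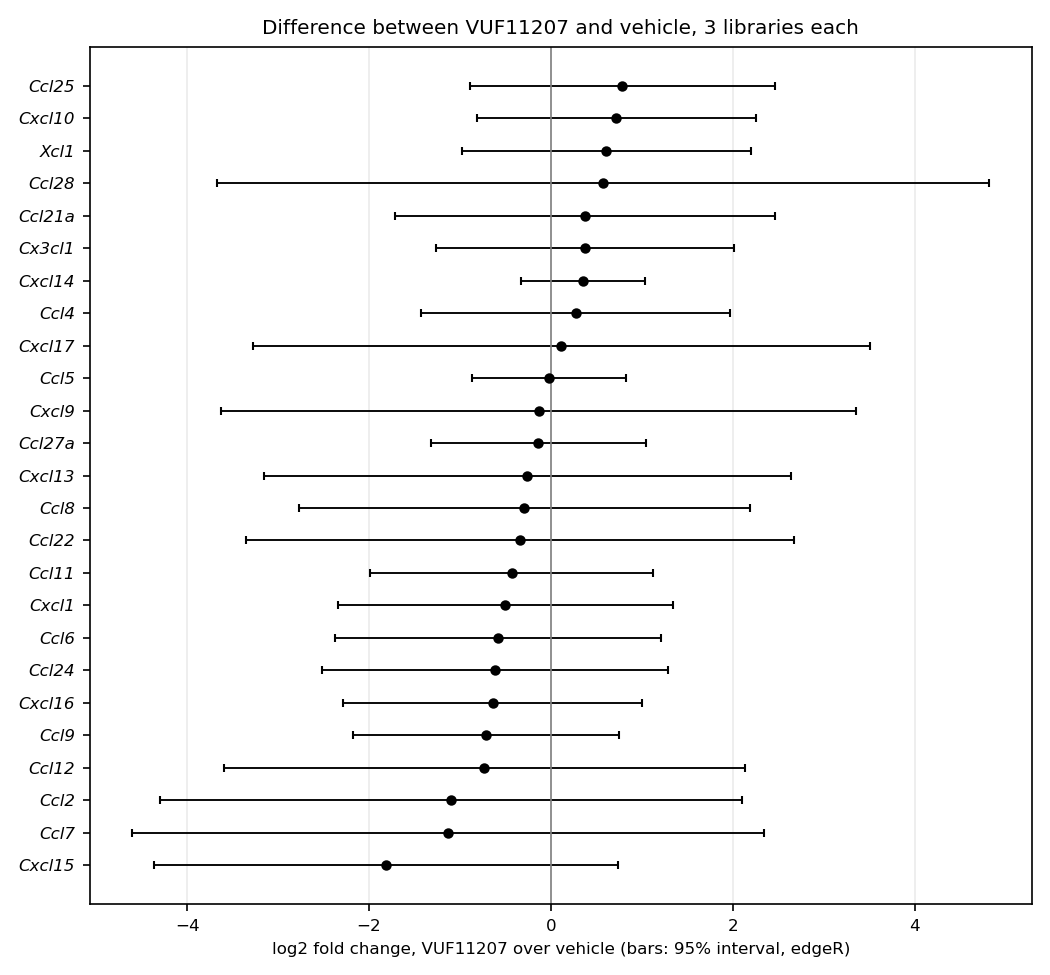
Log2 fold change of VUF11207 over vehicle (x axis) for the 25 chemokine ligands tested (y axis, sorted), with 95% intervals from edgeR. Each interval spans 0, from the narrow one of Cxcl14 (-0.33 to 1.03) to the wide one of Ccl28 (-3.67 to 4.82).

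The spread within the groups was wide for this family. The biological coefficient of variation had a median of 68.4% over the 25 ligands and of 38.3% over all genes tested. It ran from 30.9% for Cxcl14 to 134% for Ccl28. The sign of the family's median log2 fold change depended on the method and on single libraries. With all 6 libraries it was 0.0343 in limma voom with sample weights. In edgeR the median turned to 0.24 without the unnumbered vehicle library, to 0.0794 without VUF11207 replicate 1 and to 0.0069 without VUF11207 replicate 3, and stood at -0.64 without vehicle replicate 2 and at -0.48 without VUF11207 replicate 2. Leaving out the unnumbered vehicle library turned the sign of 13 of the 25 ligands. Cxcl10, Ccl25, Cxcl14 and Xcl1 stayed positive and Ccl7 negative under each setting tried, none of them past the threshold.

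**Figure D2:**
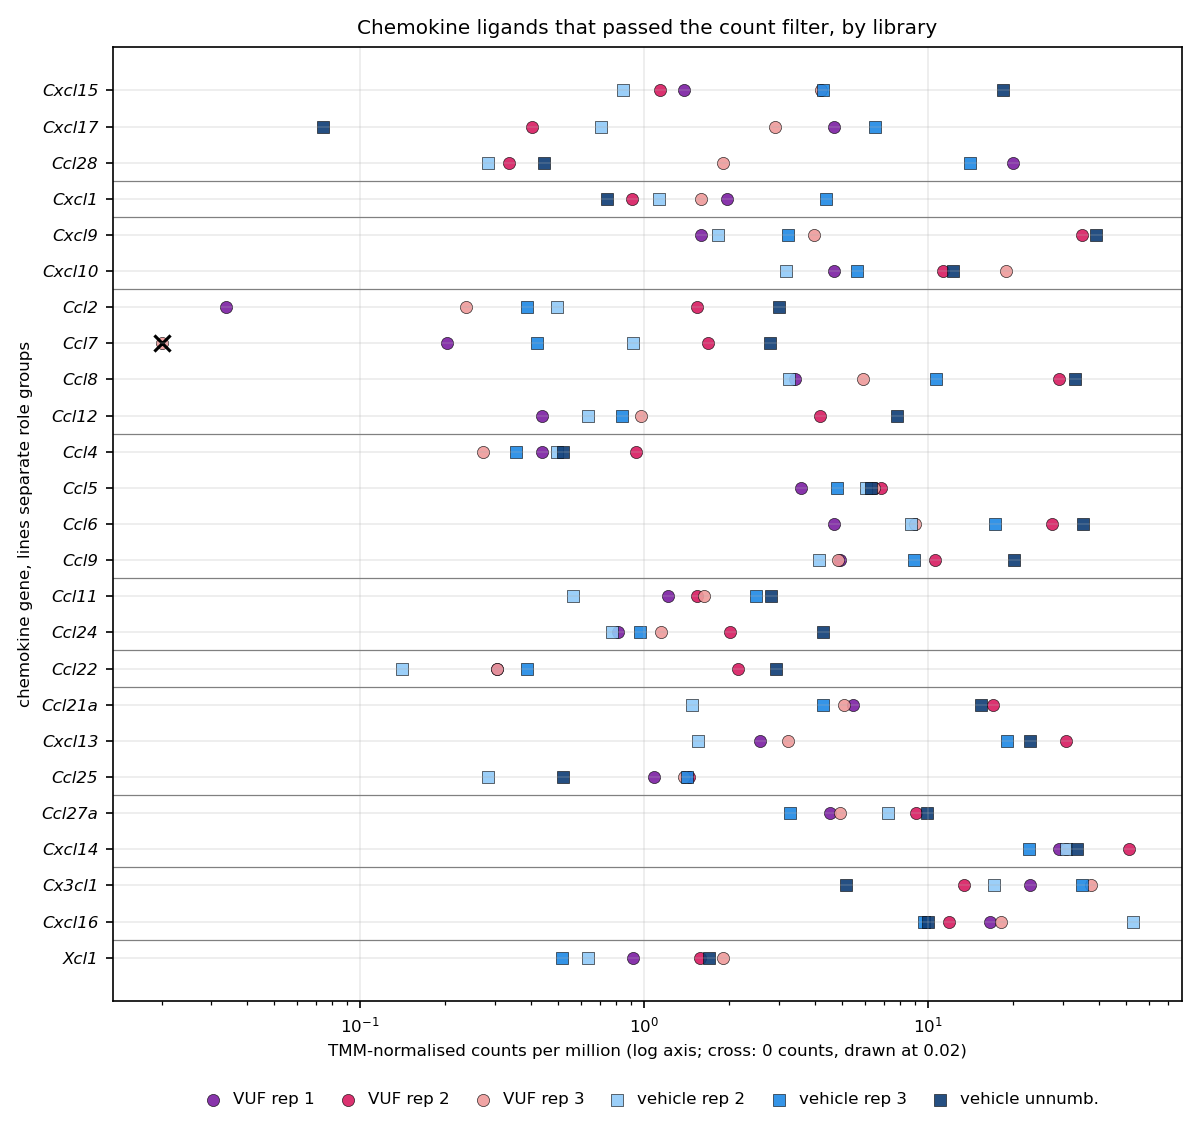
TMM-normalised CPM (log x axis) of the 25 chemokine ligands that passed the filter (y axis, grouped by role), with circles for the 3 VUF11207 (VUF) libraries and squares for the 3 vehicle libraries. Values of the groups interleave in each row, and VUF11207 replicate 2 and the unnumbered vehicle library lie together at the high end for Cxcl9, Ccl8 and Ccl22. The cross marks 0 counts of Ccl7 in VUF11207 replicate 3.

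Many of the ligands were high in the same libraries, 1 of each group. For 14 of the 25 ligands, VUF11207 replicate 2 and the unnumbered vehicle library held the highest pair of values, a share of 56.0%. Of all genes tested, 20.1% had the same pair on top, the most frequent of the 15 possible pairs. The 14 were Cxcl9, Ccl2, Ccl7, Ccl8, Ccl12, Ccl4, Ccl6, Ccl9, Ccl24, Ccl22, Ccl21a, Cxcl13, Ccl27a and Cxcl14. At the other end, Cxcl17, Cxcl1 and Cx3cl1 had that pair as their lowest values. These are descriptions of 6 libraries, and the pair was seen in the data before it was counted.

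Summed macrophage and T cell markers were highest in the same libraries, while summed NK cell, B cell and neutrophil markers were not. The 12 macrophage and monocyte markers summed to 96.8, 191 and 97.8 CPM with VUF11207, against 118, 171 and 232 CPM with vehicle, and none was at 0 in any library. The 8 T cell markers summed to 5.98, 22.2 and 6.36 CPM with VUF11207, against 5.64, 10.7 and 19.5 CPM with vehicle, with Cd5 at 0 in vehicle replicate 2. In both sums VUF11207 replicate 2 and the unnumbered vehicle library came out highest, but single markers differed. Csf1r, Mrc1, Cd163 and Cd14 were highest in vehicle replicate 3, and the other macrophage and monocyte markers in the unnumbered vehicle library. Cd4 was highest in vehicle replicate 3, and the other T cell markers in VUF11207 replicate 2 or the unnumbered vehicle library. Cd8a was lowest in VUF11207 replicate 2, at 0.268 CPM. Of 5 general leukocyte markers, Cd52, a surface glycoprotein known from lymphocytes and from epithelium of the male genital tract, reached 5742 CPM in vehicle replicate 2, so it was left out after its values were seen. The other 4 summed to 20.1, 89.7 and 20.5 CPM with VUF11207, against 30.4, 42.5 and 88.0 CPM with vehicle. The 6 NK cell markers summed to 2.13, 3.96 and 2.87 CPM with VUF11207, against 3.66, 1.20 and 2.37 CPM with vehicle, with Klrb1c, Gzma and Eomes each at 0 in at least 1 library. Summed NK cell markers were thus highest in VUF11207 replicate 2 and vehicle replicate 2. Gzma made up 2.04 CPM of the sum in vehicle replicate 2. Nkg7 was highest in VUF11207 replicate 2 and the unnumbered vehicle library, at 2.15 and 1.37 CPM. Prf1 and Klrb1c were highest in the unnumbered vehicle library, Ncr1 in VUF11207 replicate 1 and Eomes in VUF11207 replicate 2. In whole tissue, fewer cells of a type and less RNA per cell cannot be told apart, and the part of leukocyte content in the chemokine values was not tested.

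**Figure D3:**
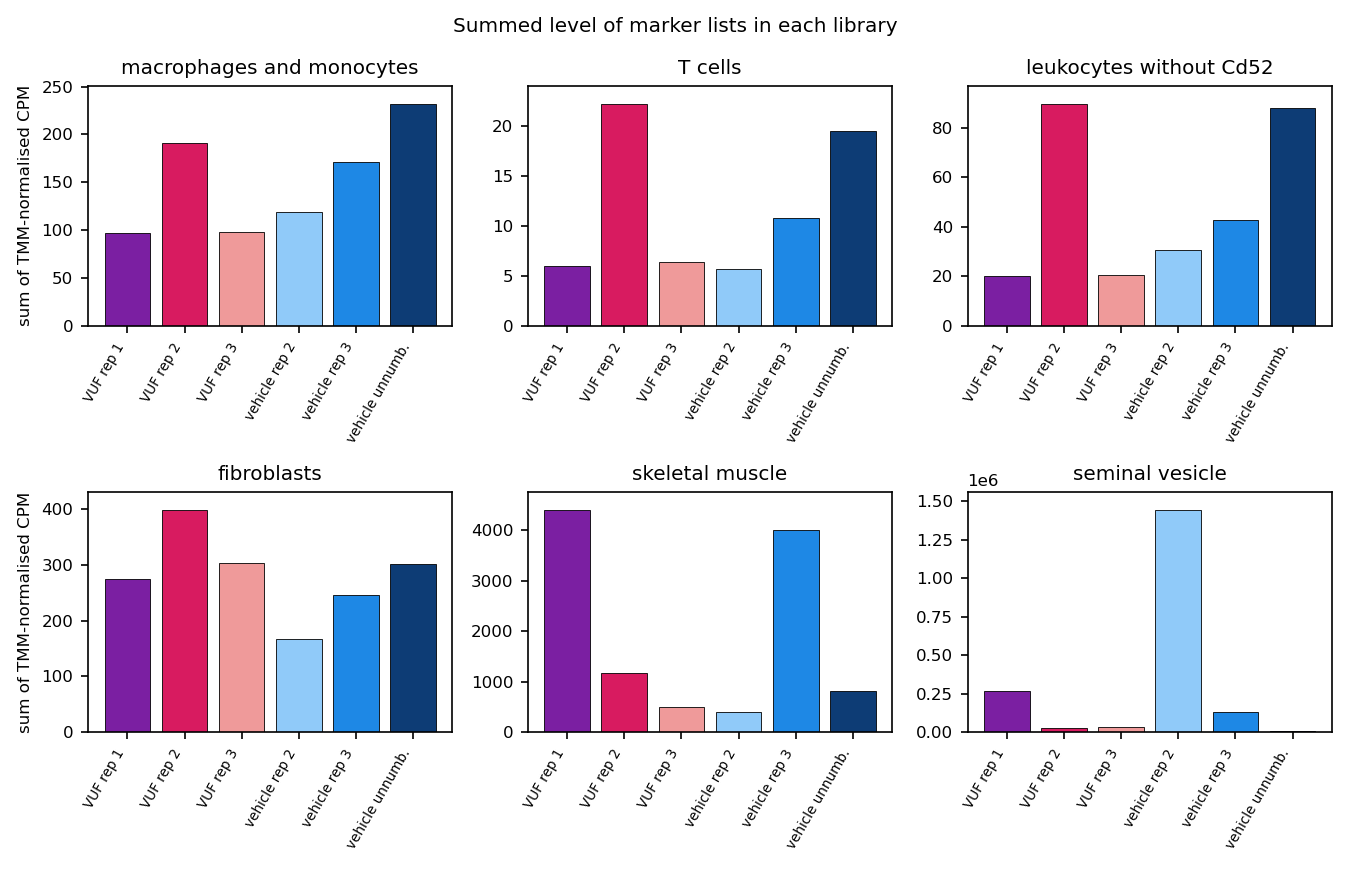
Summed TMM-normalised CPM (y axis) of 6 marker lists in each library (x axis, VUF11207 libraries to the left of the vehicle libraries). Macrophage, T cell and other leukocyte markers are highest in VUF11207 replicate 2 and the unnumbered vehicle library, while seminal vesicle genes are highest in vehicle replicate 2 and VUF11207 replicate 1.

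Among the ligands with T cell-recruiting activity, Cxcl9 and Cxcl10 had different patterns. Both are known as interferon-induced ligands of CXCR3, a receptor of activated T cells and NK cells. Cxcl9 was at 1.59, 34.9 and 3.99 CPM with VUF11207, against 1.83, 3.23 and 39.2 CPM with vehicle. One library of each group was thus about as high as the other, and the other 4 lay below 4 CPM. The estimate for Cxcl9 was a log2 fold change of -0.13 ± 1.46 (SE), and it was 2.40 without the unnumbered vehicle library and -2.40 without VUF11207 replicate 2. Cxcl10 was at 4.67, 11.3 and 18.9 CPM with VUF11207, against 3.17, 5.62 and 12.2 CPM with vehicle. Its highest value was in VUF11207 replicate 3, where Cxcl9 was low, and the log2 fold change was 0.72 ± 0.64 (SE), or 0.19 without VUF11207 replicate 3 and 1.39 without the unnumbered vehicle library. Of the annotated exons of Cxcl10, 5.91% overlaps Art3 on the opposite strand. The ratio of Cxcl9 to Cxcl10 was 0.341, 3.08 and 0.211 with VUF11207, against 0.578, 0.575 and 3.20 with vehicle. Cxcl9 spanned 24.7-fold over the 6 libraries, against 5.95-fold for Cxcl10 and 3.94-fold for the sum of the T cell markers. Ifng, which encodes the interferon that is known to induce Cxcl9, had 0, 12 and 0 counts with VUF11207, against 0, 0 and 25 counts with vehicle, with counts only in the 2 libraries that were high in Cxcl9. A count of 0 allows up to 3 counts. Cxcr3 had 4, 38 and 1 counts with VUF11207, against 6, 2 and 21 counts with vehicle.

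Cxcl9 and Cxcl10 lie within 27.5 kb of each other on chromosome 5 of mm10. Another 147 kb stretch of that chromosome holds Cxcl5, Cxcl3, Cxcl15, Cxcl1 and Cxcl2. RefSeq promoters, from 250 bases before to 50 after the start in GRCm38.p6, matched 23 of the 32 genes. Those of Cxcl9 and Cxcl10, neighbours that share a receptor but not a pattern, and of Cxcl1 and Cxcl15, neighbours of inducible and epithelial kind, are printed 5′ to 3′ with motif matches in capitals.
Cxcl9 (chr5:92328030-92328329, minus strand): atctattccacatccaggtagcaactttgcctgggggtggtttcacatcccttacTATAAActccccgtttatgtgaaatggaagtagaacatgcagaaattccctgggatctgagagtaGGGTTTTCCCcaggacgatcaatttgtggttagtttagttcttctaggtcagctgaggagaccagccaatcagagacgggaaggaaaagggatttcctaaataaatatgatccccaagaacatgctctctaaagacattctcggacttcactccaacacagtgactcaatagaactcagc
Cxcl10 (chr5:92348840-92349139, minus strand): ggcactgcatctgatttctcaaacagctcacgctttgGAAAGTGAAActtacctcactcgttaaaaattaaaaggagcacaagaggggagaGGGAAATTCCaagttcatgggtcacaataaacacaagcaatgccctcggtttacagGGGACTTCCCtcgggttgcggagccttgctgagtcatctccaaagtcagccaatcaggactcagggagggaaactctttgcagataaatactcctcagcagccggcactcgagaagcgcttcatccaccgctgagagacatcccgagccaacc
Cxcl1 (chr5:90890995-90891294, plus strand): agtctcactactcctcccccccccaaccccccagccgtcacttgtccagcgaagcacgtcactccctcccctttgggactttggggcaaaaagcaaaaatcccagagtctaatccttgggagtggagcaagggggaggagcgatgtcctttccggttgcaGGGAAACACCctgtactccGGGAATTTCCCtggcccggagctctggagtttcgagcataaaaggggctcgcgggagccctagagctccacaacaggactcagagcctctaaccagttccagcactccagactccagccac
Cxcl15 (chr5:90794284-90794583, plus strand): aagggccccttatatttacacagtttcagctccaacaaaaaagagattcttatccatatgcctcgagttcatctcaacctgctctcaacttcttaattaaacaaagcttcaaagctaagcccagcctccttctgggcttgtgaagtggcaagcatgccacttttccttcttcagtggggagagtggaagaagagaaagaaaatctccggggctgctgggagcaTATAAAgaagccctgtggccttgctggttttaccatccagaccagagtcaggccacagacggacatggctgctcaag
The motifs searched on both strands were GGGANNNNCC (a form of the NF-κB site), GAAANNGAAA (a form of the interferon-stimulated response element) and TATAAA (the TATA box). They are held by 20.7%, 3.44% and 13.6% of 32851 RefSeq promoters of this length, in that order, and by 12, 3 and 9 of the 26 promoters of chemokine ligands. Cxcl10 matched the interferon element 213 bases before its start and the NF-κB form at 159 and at 103 bases, the last being a match on both strands. Cxcl9 matched the NF-κB form at 130 bases and TATAAA at 195 bases. Cxcl1 matched the NF-κB form at 90 bases and, as 2 overlapping matches on opposite strands, at 71 and 70 bases. Cxcl15 held only TATAAA, at 27 bases. A match is a string of letters and no measured binding site.

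The monocyte chemoattractant genes Ccl2, Ccl7, Ccl8 and Ccl12 were lowest or near lowest in VUF11207 replicate 1 and highest in the unnumbered vehicle library. Their products are known to recruit monocytes and other leukocytes through CCR2 and related receptors, and the 4 genes lie with Ccl11 in 81.2 kb of chromosome 11. Ccl8 was at 3.41, 29.1 and 5.92 CPM with VUF11207, against 3.24, 10.7 and 32.97 CPM with vehicle. The log2 fold change of Ccl8 was -0.29 ± 1.03 (SE), or 0.87 without the unnumbered vehicle library, 0.20 without VUF11207 replicate 1 and 0.0565 without VUF11207 replicate 3. Set over the summed macrophage and monocyte markers, Ccl8 still varied, with ratios of 0.0353, 0.152 and 0.0605 with VUF11207, against 0.0273, 0.0623 and 0.142 with vehicle. The marker sum itself spanned 2.40-fold and Ccl8 10.2-fold. Ccl2, Ccl7 and Ccl12 were at most at 1.54, 1.68 and 4.16 CPM with VUF11207 and at 2.997, 2.78 and 7.77 CPM with vehicle. In counts, Ccl2 had 1, 46 and 7 with VUF11207, against 7, 12 and 81 with vehicle, and Ccl7 had 6, 50 and 0 with VUF11207, against 13, 13 and 75 with vehicle. All 4 estimates were negative with a median log2 fold change of -0.92, and those of Ccl2 and Ccl12 turned to 0.47 and 1.32 without the unnumbered vehicle library. Ccr2, the main receptor of Ccl2, was at 1.22, 10.1 and 0.541 CPM with VUF11207, against 1.69, 2.78 and 7.92 CPM with vehicle.

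A second stretch of chromosome 11, 139 kb long, holds Ccl5, Ccl9, Ccl6, Ccl3 and Ccl4, whose products draw monocytes, macrophages and T cells. Ccl6, a macrophage chemokine of rodents, was at 4.67, 27.4 and 9.03 CPM with VUF11207, against 8.74, 17.3 and 35.4 CPM with vehicle. Ccl9, its neighbour and also a rodent gene, was at 4.90, 10.6 and 4.84 CPM with VUF11207, against 4.16, 8.95 and 20.2 CPM with vehicle. The log2 fold changes were -0.58 ± 0.75 for Ccl6 and -0.71 ± 0.61 for Ccl9 (SE), and they turned to 0.0688 and 0.0465 without the unnumbered vehicle library. Ccl5, made by T and NK cells among others, varied far less. It was at 3.58, 6.85 and 6.49 CPM with VUF11207, against 6.06, 4.78 and 6.33 CPM with vehicle, a mean of 5.64 ± 1.79 CPM against 5.72 ± 0.825 CPM (SD, n = 3 each). Its log2 fold change was -0.0202 with a 95% interval from -0.87 to 0.83. The sign of Ccl5 depended on the scaling, as it was 0.21 with scaling by library totals alone. It did not follow the T cell markers from library to library, with ratios to their sum of 0.599, 0.308 and 1.02 with VUF11207, against 1.075, 0.446 and 0.325 with vehicle. Ccl4 was at most at 0.940 CPM with VUF11207 and at 0.518 CPM with vehicle, and Ccl3, under the count filter, had 6, 11 and 6 counts with VUF11207, against 1, 9 and 21 with vehicle.

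Neutrophil-attracting ligands had few reads in either group. Cxcl1, Cxcl2, Cxcl3 and Cxcl5 encode ligands of CXCR2, the receptor that draws neutrophils into tissue. Only Cxcl1 passed the filter, at 1.96, 0.906 and 1.59 CPM with VUF11207, against 1.13, 4.40 and 0.740 CPM with vehicle. Vehicle replicate 3 was highest and the unnumbered vehicle library lowest. The log2 fold change of Cxcl1 was -0.50 ± 0.77 (SE), or 0.68 without vehicle replicate 3. Cxcl2 had 4, 4 and 6 counts with VUF11207, against 3, 24 and 0 with vehicle. Cxcl3 had 0, 1 and 0 counts with VUF11207, against 0, 0 and 10 with vehicle, and Cxcl5 had 0, 1 and 1 counts with VUF11207, against 1, 10 and 0 with vehicle. Neutrophil markers were low too, and their sums did not overlap between the groups. The 6 markers summed to 1.01, 3.09 and 0.473 CPM with VUF11207, against 8.31, 4.07 and 14.1 CPM with vehicle. Ly6g, a defining surface marker, had 0 counts in each library. S100a9 was at 0.169, 0.973 and 0.0338 CPM with VUF11207, against 4.23, 1.81 and 8.03 CPM with vehicle. S100a8 also lay lower in every VUF11207 library, as 2.52% of all genes tested did, while Csf3r and Mpo overlapped. Retnlg lay lower only by a few reads, at 0 CPM in every VUF11207 library, against 0.564, 0.129 and 0.296 CPM with vehicle. The 3 markers tested had negative estimates with a median log2 fold change of -3.00, and 0 were called. Cxcr2 had 0, 0 and 0 counts with VUF11207, against 6, 1 and 0 with vehicle, and Cxcr1 had 0 counts in each library. The part of neutrophil content in the values of these ligands was not tested.

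The remaining leukocyte-recruiting ligands were low, and 1 of them was carried by a single library. Ccl17 and Ccl22, which lie with Cx3cl1 in 66.5 kb of chromosome 8, encode the ligands of CCR4, a receptor of type 2 helper and regulatory T cells. Ccl17 had 1, 6 and 3 counts with VUF11207, against 1, 2 and 149 with vehicle. Its 149 counts in the unnumbered vehicle library corresponded to 5.51 CPM, and the gene did not pass the count filter, having few counts in the other 5 libraries. Ccl22 followed the more common pattern, at 0.304, 2.15 and 0.304 CPM with VUF11207, against 0.141, 0.388 and 2.92 CPM with vehicle. The estimated log2 fold change of Ccl22 was -0.34 ± 1.27 (SE), or 1.72 without the unnumbered vehicle library. The eosinophil-attracting genes Ccl11 and Ccl24 were at 1.22 to 1.62 and 0.811 to 2.01 CPM with VUF11207, against 0.564 to 2.81 and 0.775 to 4.29 CPM with vehicle. Eosinophil markers summed to 0.507, 4.46 and 0.372 CPM with VUF11207, against 0.564, 0.420 and 6.22 CPM with vehicle. Most of this sum in VUF11207 replicate 2 and the unnumbered vehicle library was Il5ra, at 3.66 and 6.03 CPM. Epx, which encodes a peroxidase of eosinophil granules, was at 0 in both. Prg2 of the same list was at 0.671 and 0.185 CPM in these libraries, and at 0 in VUF11207 replicates 1 and 3. Siglecf was at 0.134 CPM in VUF11207 replicate 2 and at 0 in the unnumbered vehicle library. Xcl1, a C chemokine of NK and CD8 T cells, was at 0.913, 1.58 and 1.89 CPM with VUF11207, against 0.634, 0.517 and 1.70 CPM with vehicle. The log2 fold change of Xcl1 was 0.61 ± 0.67 (SE), or 1.35 without the unnumbered vehicle library and 0.31 without vehicle replicate 3. Part of its annotated exons, 18.7%, overlaps the opposite-strand transcript Gm20743, and as no source used here states the strand setting of the counting, its value is uncertain. Ccl20, the ligand of CCR6, had 6, 23 and 1 counts with VUF11207, against 0, 8 and 0 with vehicle.

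Among homeostatic ligands of lymphoid tissue, Cxcl13 and Ccl21a had most reads. Cxcl13, which draws B cells into follicles through CXCR5, was at 2.57, 30.8 and 3.21 CPM with VUF11207, against 1.55, 19.1 and 22.9 CPM with vehicle. Here vehicle replicate 3 joined the 2 libraries that were high in Cxcl9. For Cxcl13 the log2 fold change was -0.26 ± 1.21 (SE), and it turned to 0.26 without VUF11207 replicate 1, to 0.20 without VUF11207 replicate 3 and to 0.23 without the unnumbered vehicle library. The B cell markers Cd79a, Cd79b, Ms4a1 and Cd22 summed to 0.710, 10.4 and 1.45 CPM with VUF11207, against 1.13, 5.40 and 4.22 CPM with vehicle, with Ms4a1 at 0 in VUF11207 replicate 1 and vehicle replicate 2. The 3 libraries high in Cxcl13 were also the highest in these markers. Ccl21a, made by lymphatic endothelium and lymphoid stroma for CCR7-bearing cells, was at 5.48, 17.0 and 5.07 CPM with VUF11207, against 1.48, 4.27 and 15.4 CPM with vehicle. For Ccl21a the log2 fold change was 0.38 ± 0.88 (SE), or -0.42 without VUF11207 replicate 2 and -0.0834 without vehicle replicate 2. The mouse genome holds near-identical copies of this gene, so its value is uncertain. Ccl21b, such a copy with a row of its own, had 4 counts in all. Lymphatic endothelial markers summed to 5.41, 9.70 and 4.33 CPM with VUF11207, against 4.44, 6.82 and 9.84 CPM with vehicle. Prox1 of this list was at 0 in vehicle replicate 2 and the unnumbered vehicle library. Lyve1 was the largest part of the sum in VUF11207 replicate 2 and the unnumbered vehicle library, at 6.81 and 5.85 CPM. Ccl19, the other CCR7 ligand, had 4, 2 and 8 counts with VUF11207, against 1, 21 and 10 with vehicle. Ccl25, known from thymus and small intestine, was at 1.30 ± 0.194 CPM with VUF11207, against 0.741 ± 0.602 CPM with vehicle (SD, n = 3 each). The estimate was 0.79 ± 0.70 on the log2 scale (SE), or 0.43 without vehicle replicate 2 and 1.68 without vehicle replicate 3. Of the exons of Ccl25, 2.74% overlaps Elavl1 on the opposite strand.

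**Figure D4:**
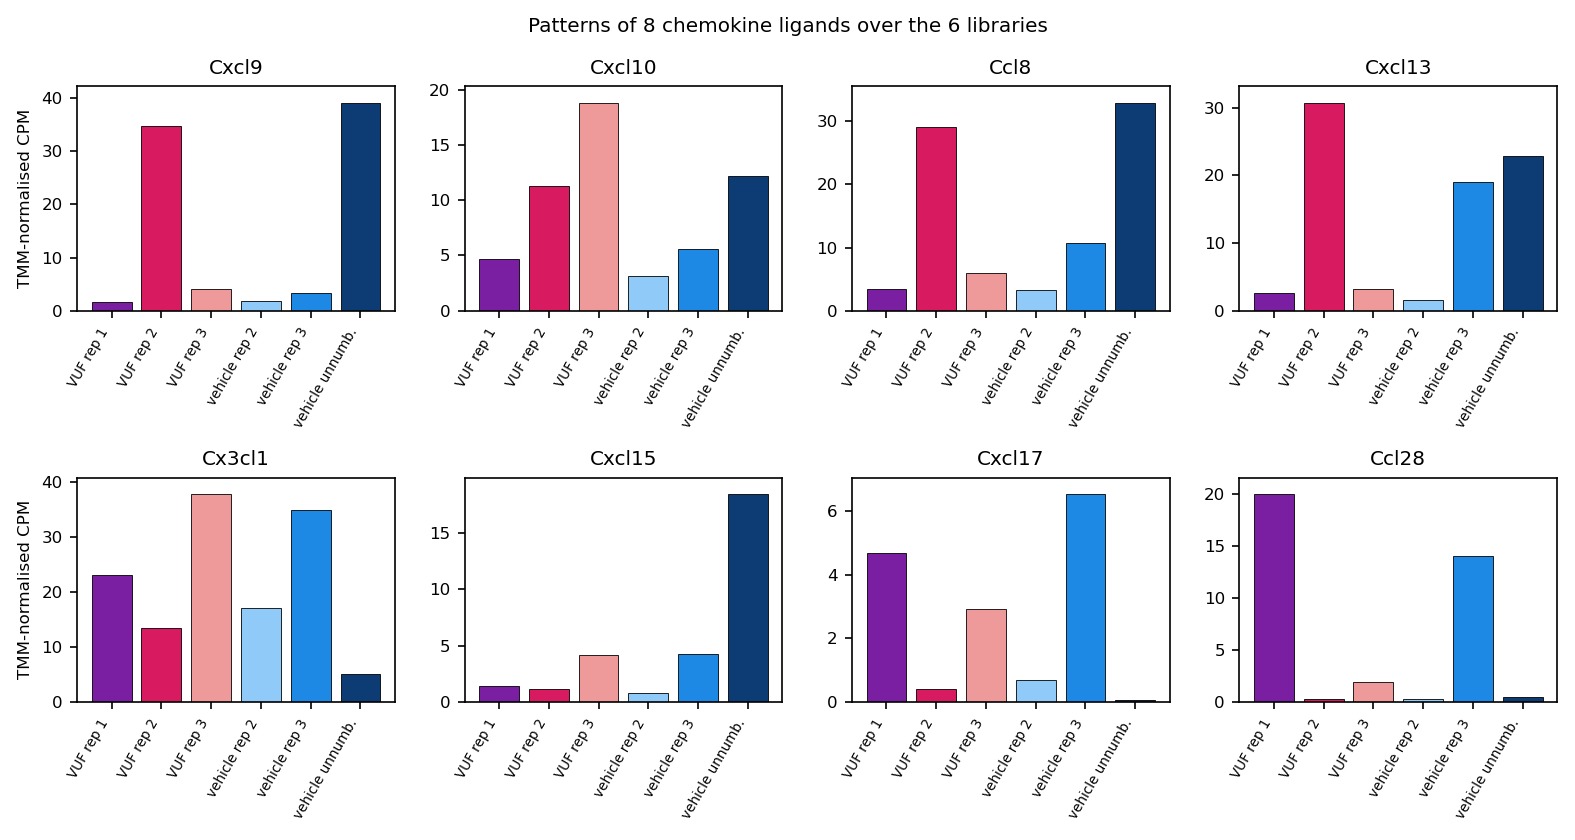
TMM-normalised CPM (y axis, each panel with its own scale from 0) of 8 chemokine ligands in each library (x axis, VUF11207 libraries to the left of the vehicle libraries). Cxcl9 and Ccl8 are high in VUF11207 replicate 2 and the unnumbered vehicle library, Cx3cl1 and Cxcl17 are lowest there, and Ccl28 is high in VUF11207 replicate 1 and vehicle replicate 3.

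Of the 3 epithelial ligands, Cxcl17 and Ccl28 were highest in VUF11207 replicate 1 and vehicle replicate 3, and Cxcl15 in the unnumbered vehicle library and vehicle replicate 3. Cxcl15, a mouse chemokine first known from lung epithelium, was at 1.39, 1.14 and 4.19 CPM with VUF11207, against 0.845, 4.27 and 18.4 CPM with vehicle. It was 1 of the 2 ligands tested with the unnumbered vehicle library and vehicle replicate 3 on top, the other being Ccl11. Its log2 fold change of -1.81 ± 1.07 (SE) had a 95% interval from -4.36 to 0.74, and it was -0.20 without the unnumbered vehicle library. Cxcl17, a mucosal chemokine, was at 4.67, 0.403 and 2.91 CPM with VUF11207, against 0.705, 6.53 and 0.0740 CPM with vehicle, so it was lowest where Cxcl15 was highest. On the log2 scale the difference in Cxcl17 was 0.11 ± 1.42 (SE), or -0.46 without the unnumbered vehicle library, -0.55 without VUF11207 replicate 1, -0.31 without vehicle replicate 2 and 2.84 without vehicle replicate 3. Ccl28, which guides IgA-producing plasma cells and T cells to mucosae and glands, was at 20.01, 0.336 and 1.89 CPM with VUF11207, against 0.282, 14.1 and 0.444 CPM with vehicle. High values of Ccl28 thus came from the same library of each group as those of Cxcl17. This pair was on top for 3 ligands, the other being Cxcl1, and for 11.1% of all genes tested. On the log2 scale Ccl28 differed by 0.58 ± 1.77 (SE), or -2.13 without VUF11207 replicate 1 and 4.31 without vehicle replicate 3. These 2 libraries also had the most skeletal muscle transcripts, with 5 markers summing to 4391, 1176 and 504 CPM with VUF11207, against 404, 3994 and 812 CPM with vehicle. In VUF11207 replicate 2 and the unnumbered vehicle library most of this sum was Acta1, at 1126 and 776 CPM. The other markers, Myh4, Myh1, Ckm and Tnnt3, were lower in both than in VUF11207 replicate 3. General epithelial markers spanned only 1.62-fold over the libraries, against 71.0-fold for Ccl28, 88.2-fold for Cxcl17 and 21.8-fold for Cxcl15. The part of tissue composition in these values was not tested.

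Cxcl14 and Ccl27a varied less between libraries than most ligands. Cxcl14, a homeostatic chemokine of epithelia and fibroblasts, was at 29.1, 51.1 and 30.7 CPM with VUF11207, against 30.8, 22.7 and 33.5 CPM with vehicle. The mean was 37.0 ± 12.2 CPM with VUF11207 and 29.0 ± 5.61 CPM with vehicle (SD, n = 3 each). The log2 fold change of Cxcl14 was 0.35 ± 0.29 (SE), or 0.0499 without VUF11207 replicate 2. Fibroblast markers summed to 275, 398 and 302 CPM with VUF11207, against 168, 246 and 301 CPM with vehicle. Ccl27a, which encodes a CCR10 ligand of skin epithelium, was at 4.53, 9.13 and 4.90 CPM with VUF11207, against 7.26, 3.26 and 9.92 CPM with vehicle. Its log2 fold change was -0.14 ± 0.50 (SE), and its sign turned without the unnumbered vehicle library (0.24), without VUF11207 replicate 1 (0.0794), without VUF11207 replicate 3 (0.0069) and with scaling by library totals (0.0857). Near-identical copies make this value uncertain as well, and the copy Ccl27b had 30 counts in all.

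The transmembrane ligands Cx3cl1 and Cxcl16 were highest in different libraries. Cx3cl1, fractalkine, which tethers monocytes that bear its receptor and is made by epithelium and endothelium, was at 23.0, 13.5 and 37.7 CPM with VUF11207, against 17.1, 34.9 and 5.14 CPM with vehicle. It was lowest in the libraries where its receptor was highest. Cx3cr1 was at 4.97, 14.5 and 3.65 CPM with VUF11207, against 6.20, 5.75 and 19.5 CPM with vehicle. The log2 fold change of Cx3cl1 was 0.38 ± 0.69 (SE), or -0.0725 without the unnumbered vehicle library and -0.0649 without VUF11207 replicate 3. Cx3cl1 lies between Ccl22 and Ccl17, both of which were highest in the unnumbered vehicle library, where it was lowest. Cxcl16, the ligand of CXCR6, was at 16.6, 11.9 and 18.1 CPM with VUF11207, against 53.0, 9.70 and 9.99 CPM with vehicle. It peaked in vehicle replicate 2, the library richest in seminal vesicle transcripts, and was the only ligand tested that was highest there. Its log2 fold change was -0.64 ± 0.69 (SE), or 0.67 without vehicle replicate 2 and 0.12 with scaling by library totals. Of its annotated exons 18.3% overlaps Zmynd15 on the opposite strand.

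Levels can be set between genes only per length of exon, here in CPM per kb of GENCODE M21 exons. Ccl8 averaged 27.8 CPM per kb over the 6 libraries and Cxcl14 18.1, followed by Cxcl13 at 11.6, Ccl6 at 9.52, Ccl21a at 9.34, Cxcl16 at 6.58, Ccl5 at 5.92, Cx3cl1 at 5.57, Cxcl9 at 4.68 and Ccl12 at 4.60. Neighbours in this order overlapped widely, as Ccl8 ran from 6.34 to 64.5 CPM per kb over the libraries and Cxcl14 from 12.4 to 28.0. At the low end, Cxcl5 averaged 0.0412 and Cxcl3 0.0192 CPM per kb. The family as a whole summed to 138, 275 and 168 CPM with VUF11207, against 147, 184 and 296 CPM with vehicle, so both groups had libraries with little and with much chemokine RNA.

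Of 23 chemokine receptor genes listed, 22 had a row and 10 passed the count filter. Of these 10, 0 were called by edgeR, against 0% of all genes, with 4 estimates positive, 6 negative and a median log2 fold change of -0.19. Signalling receptors together summed to 10.7, 40.3 and 7.03 CPM with VUF11207, against 13.1, 13.6 and 42.8 CPM with vehicle, again highest in VUF11207 replicate 2 and the unnumbered vehicle library. Atypical receptors were more even in sum, at 15.7, 18.5 and 16.5 CPM with VUF11207, against 23.2, 13.4 and 15.8 CPM with vehicle. Among them Ackr3, the receptor of the agonist, was at 5.58, 12.7 and 10.2 CPM with VUF11207, against 4.65, 5.56 and 11.2 CPM with vehicle. Its log2 fold change was 0.41 ± 0.46 (SE), and those of Ackr4 and Ccrl2 were 0.19 and -0.88. Behind the sum, Ackr3, Ackr4 and Ccrl2 had different patterns and spanned 2.73-fold, 3.40-fold and 6.87-fold over the libraries. Ccrl2 was highest in vehicle replicate 2, at 15.2 CPM, and Ackr4 was lowest in the unnumbered vehicle library, at 1.33 CPM. Among signalling receptors, the log2 fold change was -1.31 for Ccr1, -0.0725 for Ccr2, -0.31 for Cxcr4, -1.23 for Cxcr5, 0.31 for Cxcr6 and -0.45 for Cx3cr1. Ccr1 and Ccr2 serve monocyte and macrophage ligands described above, and Cxcr5 serves Cxcl13. Among other ligands, Cxcl12 was at 42.2, 38.4 and 27.9 CPM with VUF11207, against 56.4, 35.6 and 39.4 CPM with vehicle. The log2 fold changes of Cxcl12 and of the platelet chemokine genes Pf4 and Ppbp were -0.28, -0.70 and -0.65. Of 8 cytokine genes known to induce chemokines that had a row, only Ltb passed the filter, with a log2 fold change of 0.0638 ± 0.76 (SE). Under the filter, Il1a, which encodes interleukin 1 alpha, had 6, 7 and 13 counts with VUF11207, against 1, 1 and 1 counts with vehicle, and was named after its values were seen. It was the only gene of this list higher in every VUF11207 library. The share over all genes tested was 3.05%, which leaves out genes under the filter such as Il1a. Without the filter, edgeR gave Il1a a log2 fold change of 2.62 ± 1.11 (SE) with an unadjusted p of 0.0472. That fit called 0 of 17478 genes, with 239 at an unadjusted p under 0.05. In the same fit Il1b, Tnf, Lta and Ifng went the other way, at -1.83, -1.32, -1.40 and -1.18. Il1b had 2, 4 and 11 counts with VUF11207, against 8, 8 and 35 with vehicle. Il4 and Il13 had 0 counts in each library.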

How the data were processed

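Per the labels' protocols, TRIzol was used for total RNA (VAHTS Universal V6 kit for the libraries). The submitters' processing notes name the tools HISAT2, HTSeq and fastp and the build mm10. No source used here gives versions, the annotation or the strand setting. The deposited table holds raw read counts per gene symbol, and 5 samples' own files were identical to it.

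Groups came from the labels. Counts were scaled by TMM and filtered with filterByExpr, which left 13753 of 18697 genes. Groups were compared by edgeR 4.0.16 (glmQLFit, robust, and glmQLFTest, two-sided), adjusted by Benjamini-Hochberg over all genes tested, threshold 0.05, R 4.3.3. The standard error is the log2 fold change over the square root of F. An exact permutation test of 3 against 3 libraries cannot go below 0.1, so none is given. The limit of 3 counts for a count of 0 covers counting error only. Alternatives used DESeq2 1.42.0, limma 3.58.1 (voom with sample weights), other scaling and filters, left-out libraries and a replicate block. Members, gene lists and tests were chosen with earlier results of these data known. The text names each of the 32 ligands, receptors and cytokines from fixed lists, and marker lists as sums; 1 receptor and 1 B cell marker are not reported here. Ligands with a mean of at least 5 CPM are given per library. Others given per library (Cxcl17 and further ligands below 5 CPM) were chosen after their values were seen. Coordinates and exon lengths are from GENCODE M21 (mm10) and promoters from RefSeq (GRCm38.p6). Figures and sequence searches used Python 3.11.15.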

Additional observations from a re-analysis of the deposited data

How the results depend on the processing

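In 15 alternative settings 0 chemokine ligands and 0 receptor genes were called in each, while over all genes DESeq2 called 4 and scaling by library totals called 3. Of 25 ligands tested, 5 kept the sign of the log2 fold change in each setting. With scaling by library totals, which moved the median of all genes to 0.14, Ccl5 turned to 0.21, Ccl27a to 0.0857 and Cxcl16 to 0.12. TMM without the 50 most abundant genes gave 0.0125 for Ccl5. Limma voom with sample weights gave 0.33 for Cxcl9, 0.0343 for Ccl24, 0.34 for Ccl22 and 0.21 for Ccl27a. Without the 2 libraries richest in seminal vesicle genes the values were -0.98 for Cxcl17, -2.69 for Ccl28, 0.29 for Ccl5, 0.12 for Ccl27a and 0.63 for Cxcl16. With 1 library left out, the log2 fold change ran from -0.55 to 2.84 for Cxcl17, -2.13 to 4.31 for Ccl28, -0.90 to 0.68 for Cxcl1, -2.40 to 2.40 for Cxcl9, -3.22 to 0.47 for Ccl2, -1.74 to 0.87 for Ccl8, -2.11 to 1.32 for Ccl12, -0.35 to 0.60 for Ccl4, -0.18 to 0.25 for Ccl5 and -1.58 to 0.0688 for Ccl6. It ran from -1.19 to 0.0465 for Ccl9, -1.04 to 0.60 for Ccl24, -1.91 to 1.72 for Ccl22, -0.42 to 1.66 for Ccl21a, -2.32 to 0.26 for Cxcl13, -0.53 to 0.24 for Ccl27a, -0.0725 to 1.16 for Cx3cl1 and -1.02 to 0.67 for Cxcl16. Without a turn it ran from -2.63 to -0.20 for Cxcl15, 0.19 to 1.39 for Cxcl10, -3.70 to -0.0628 for Ccl7, -0.85 to -0.0839 for Ccl11, 0.43 to 1.68 for Ccl25, 0.0499 to 0.53 for Cxcl14 and 0.31 to 1.35 for Xcl1. The cause of these turns was not tested beyond the library left out.

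Replicate numbers 2 and 3 were shared by both groups, but nothing in the labels pairs the mice, and deviations from the group means correlated at -0.37 for replicate 2 and at 0.0595 for replicate 3. Column names of both groups also hold the same numbers. By these, the unnumbered vehicle library shares its column number with VUF11207 replicate 1, but no label says that such numbers pair mice. A fit with replicate numbers 2 and 3 as a block, on 4 libraries without the unnumbered vehicle library and VUF11207 replicate 1, called 0 genes. In this block fit the median of the ligands was 0.47, and the values were 0.20 for Cxcl15, -0.99 for Cxcl17, -1.67 for Ccl28, 2.23 for Cxcl9, 0.51 for Ccl2, 1.12 for Ccl8, 1.44 for Ccl12, 0.32 for Ccl5, 0.35 for Ccl6, 0.23 for Ccl9, 0.36 for Ccl11, 0.81 for Ccl24, 1.60 for Ccl22, 0.72 for Cxcl13, 0.47 for Ccl27a and -0.10 for Cx3cl1, and without a turn 1.80 for Cxcl10 and 1.61 for Xcl1. Depth limits the 7 ligands under the filter, which had 11 to 162 counts over the 6 libraries.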
